A study of Mus musculus with 753 samples.

Results

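Among the tdTomato-labelled progeny of Gata6-expressing cells in healing mouse wounds, the deposited annotation separates cells with the identity of basal interfollicular epidermis, IFE-B, from cells with that of the first upper hair follicle population, uHF-I. The members described here are the 194 lineage-positive (lin+) wound cells that carry one of these 2 identities, 132 IFE-B and 62 uHF-I, out of 684 annotated cells of the series and 258 lin+ wound cells of any identity. They were compared within 5 mouse sets, a mouse set being the cells of 1 day and, where the labels give one, 1 replicate, and every set held at least 5 cells of each identity. Day 6 gave 44 IFE-B and 26 uHF-I cells, day 9 gave 29 and 8 in replicate 1 and 17 and 11 in replicate 2, and day 11 gave 18 and 6 in replicate 1 and 24 and 11 in replicate 2.

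All animals carried the same alleles, Gata6EGFPCreERT2 and Rosa26-fl/STOP/fl-tdTomato, and were 8 to 12 weeks old. Topical 4-hydroxytamoxifen, given to every group, activated the Cre wherever Gata6 was expressed, and tdTomato then marked those cells and their progeny for good. A full-thickness punch wound followed a week later, and single keratinocytes without CD45 were sorted from wounds at days 6, 9 and 11 and from distant unwounded skin (day 0) into wells for Smart-seq2, a full-length transcript protocol without molecular identifiers. The lin+ groups are those at day 6, day 9 and day 11, with 78 lin+ cells of unwounded skin (44 IFE-B and 34 uHF-I) and 130 lineage-negative (lin-) IFE-B wound cells as reference groups of the same genotype and treatment. The label depends on Gata6 activity at the time of treatment, so a lin+ cell need not express Gata6 when it is collected. Cells of wounds and of unwounded skin were mixed before sorting with GFP-expressing carrier epidermis that the gate then removed. Each replicate of days 9 and 11 came from a single mouse. The methods describe replicates of day 6 that pooled several mice, which its labels do not separate, so day 6 is 1 set here. The unwounded skin was taken from mice that also gave day 9 or day 11 wounds. By staining, the paper placed labelled cells of unwounded skin in suprabasal layers of the upper follicle and sebaceous duct. It detected no labelled basal cells there, and proposes that day 0 cells high in Itga6 could be lin- contaminants. IFE-B in unwounded skin is thus a label by transcriptome, and the position of these cells was not tested here.

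The hair follicle opens into the epidermis through its upper part, the infundibulum, from which the sebaceous duct leads to the sebaceous gland. Cells of this region express Gata6 and the keratin Krt79, and their suprabasal layers differentiate. Basal interfollicular cells sit on the basement membrane, divide, and supply the layers above, and after injury cells from the follicle enter the new epidermis and can take part in it. The comparison asks which transcripts separate labelled cells read as basal epidermis from labelled cells still read as upper follicle in the same wound.

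The authors assigned the identities from the transcriptomes of these same cells, so a gene that separates them is partly what separated them in the first place. Marker levels are therefore given as a check of the labels, and a p value for the identity contrast says only how evenly a difference recurred over 5 mouse sets. A level is the average, over the cells of 1 identity in 1 mouse set, of the expression value after each cell was scaled to a total of 1000000. In replicate 1 of days 9 and 11 the value is a read count, not divided by transcript length, and in day 6 and replicate 2 it is RPKM, which is, so levels are set side by side within a mouse set. Lists of levels follow the order day 6, day 9 replicate 1, day 9 replicate 2, day 11 replicate 1 and day 11 replicate 2. Log2 differences are IFE-B minus uHF-I on the scale log2(level + 1) after scaling of the sets, from limma with the mouse set as block.

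Of 9196 genes tested, 9 (0.0979%) passed a Benjamini-Hochberg adjusted p of 0.05 in limma. They were 3 upper follicle genes higher in uHF-I (0.0326% of tested genes), namely Krt79, Defb6 and Alox12e, and 6 genes higher in IFE-B (0.0652%), namely Ly6a, Ifitm3, Ccnb2, Cenpa, Cdca3 and Cdca8, of which the last 4 act in mitosis. The number of calls depended on single mouse sets: it was 2 without day 6, 1 without replicate 2 of day 9, 8 without replicate 1 of day 11, and 0 without replicate 1 of day 9 or replicate 2 of day 11. Quasi-likelihood tests in edgeR on recovered reads called 0 genes, with 735 genes at an unadjusted p under 0.05 against 1205 in limma. With no filter on low values 0 genes passed. The 9 genes had the same direction under every one of these alternatives. The filter asked for a minimum level in some profiles of either identity. Ly6a and the 4 mitotic genes met it through IFE-B, where they were high, and their uHF-I profiles alone would not have met it. For these genes the filter was not independent of the contrast, so their adjusted p values hold only given that filter.

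**Figure D1:**
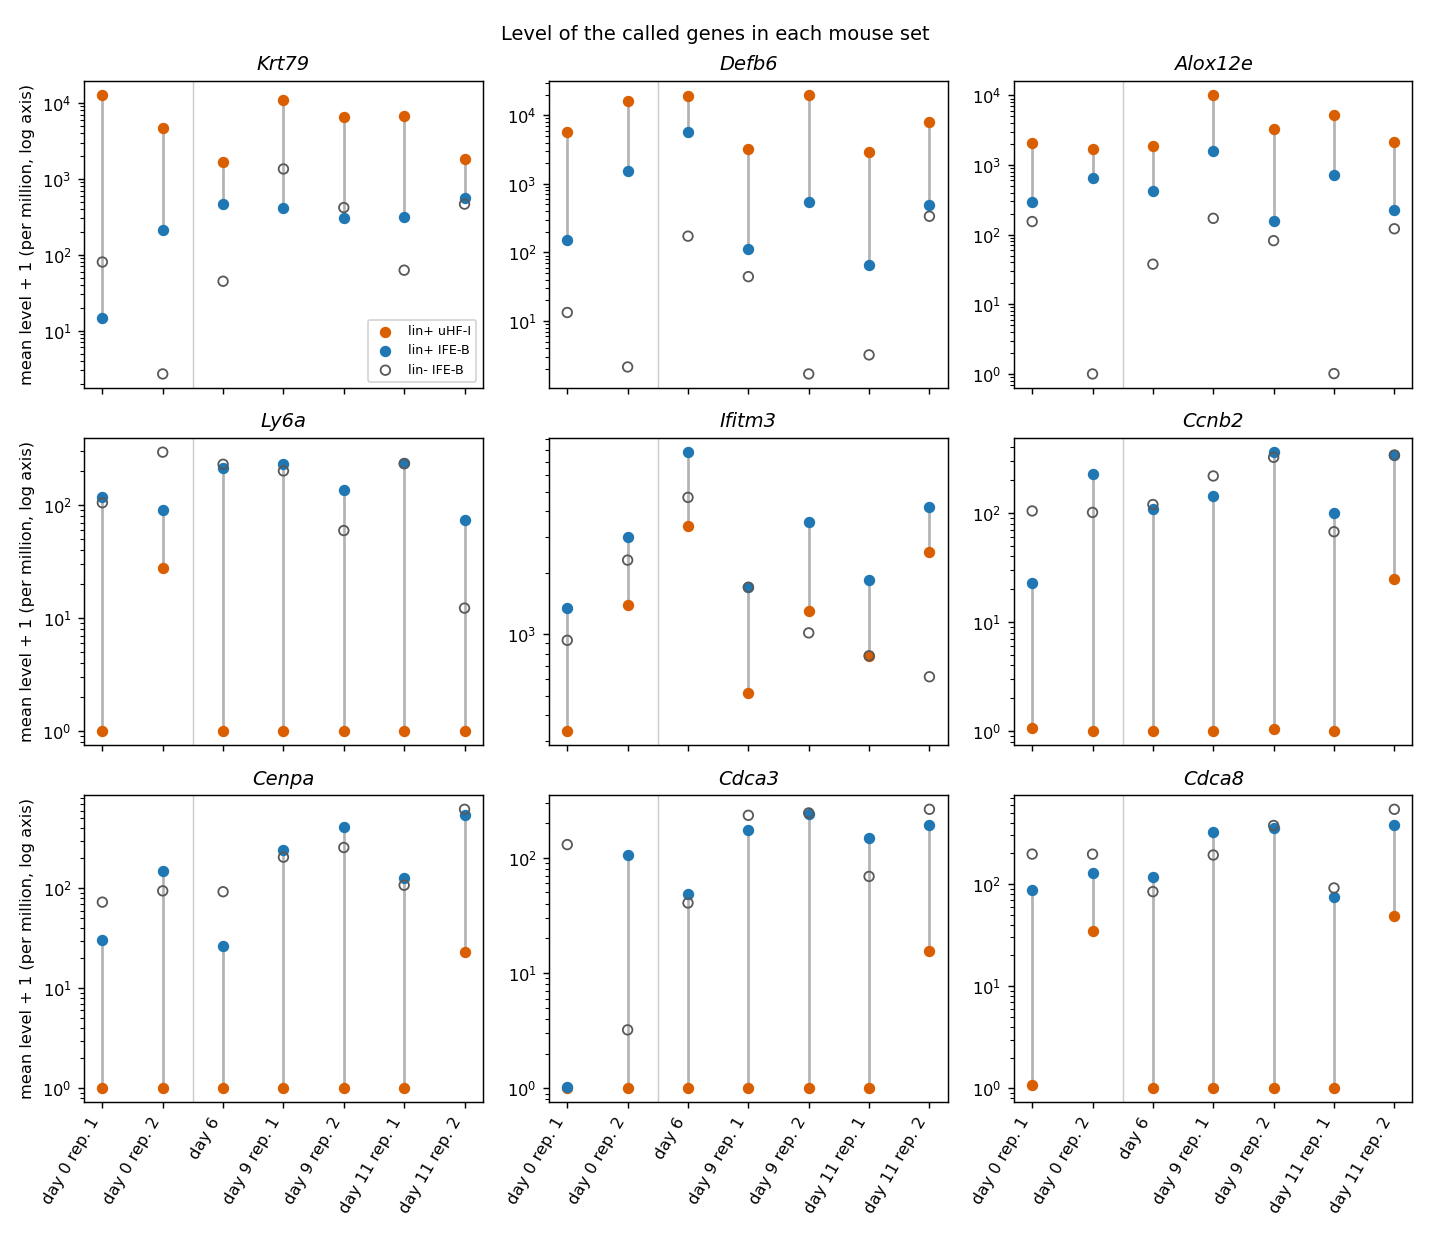
Mean level plus 1 (per 1000000, log axis) of the 9 genes that passed the test, in each mouse set. Blue points are lin+ IFE-B, orange points lin+ uHF-I, open circles lin- IFE-B, and a grey line joins the 2 lin+ identities of a set. The 2 unwounded sets stand left of the vertical line, and in the 5 wound sets the orange point lies above the blue one for Krt79, Defb6 and Alox12e and below it for the other 6 genes.

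Krt79, the keratin by which the upper follicle is known, had levels of 468, 406, 299.8, 315 and 561 in IFE-B against 1688, 10820, 6492, 6724 and 1804 in uHF-I, and uHF-I was higher in 5 of 5 sets. The log2 difference was -3.45 (SE 0.47, limma adjusted p = 0.0334). A read of Krt79 was nevertheless found in 62 of 132 (47%) lin+ IFE-B cells, next to 51 of 62 (82.3%) uHF-I cells and 31 of 130 (23.8%) lin- IFE-B cells of the same wounds. Among the cells with at least 500000 reads, thinned to that number, these shares were 38.9% of 126, 82.3% of 62 and 22.0% of 118 cells. IFE-B cells of the Gata6 lineage thus stood between the other 2 groups by this count, while their mean level exceeded that of lin- IFE-B in 3 of 5 sets. Fewer genes were detected in lin- than in lin+ IFE-B cells, by the medians given below for cells with and without several mitosis genes. The part of this in the lin- shares, for Krt79 and for the genes that follow, was not tested.

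Defb6 encodes a beta-defensin, an antimicrobial peptide. Its levels were 5691, 111, 545, 65 and 485 in IFE-B and 19234, 3187, 19793, 2912 and 8023 in uHF-I, the log2 difference -4.29 (SE 0.46, limma adjusted p = 0.0152). The lin- IFE-B cells had 171, 43.3, 0.684, 2.19 and 335, below lin+ IFE-B in 5 of 5 sets. Day 6 differed from the later sets in that IFE-B cells themselves held a high level, and the gap between identities there was the smallest of the 5.

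Alox12e, an epidermal lipoxygenase that oxygenates fatty acids, showed the most even difference of the 3. IFE-B levels were 417, 1584, 156, 709 and 227 and uHF-I levels 1881, 10128, 3286, 5284 and 2116, a log2 difference of -3.10 (SE 0.30, limma adjusted p = 0.0125). Again lin+ IFE-B exceeded lin- IFE-B, which had 36.7, 171, 81, 0.0115 and 120.5, in 5 of 5 sets. Reads were present in 57 of 132 (43.2%) lin+ IFE-B cells, 51 of 62 (82.3%) uHF-I cells and 33 of 130 (25.4%) lin- IFE-B cells. The direction from lin- to lin+ IFE-B has only 5 pairs, for which an exact two-sided sign-flip test cannot give a p below 0.0625, so these are counts of sets with no test.

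Other markers of the upper follicle were less even. Of the 10 on the list, all tested, 3 passed in the direction of uHF-I, 5 were higher in uHF-I in every set against 1.85% of all tested genes, and the median log2 difference was -2.30 where that of all genes was 0.62. Cst6, a secreted inhibitor of cysteine proteases, had levels of 1009, 145, 49.8, 96.9 and 117 in IFE-B and 6665, 16001, 8418, 164 and 3354 in uHF-I, a log2 difference of -4.52 (SE 0.83) that missed the threshold at a limma adjusted p of 0.107. The smallest gap was at replicate 1 of day 11, where only 6 uHF-I cells contributed. Teddm3 was low in both identities, with 0.955, 0, 0, 0.226 and 7 against 3.22, 37.8, 38.5, 57 and 24.4, and did not pass (adjusted p = 0.215 in limma).

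Krt17, a keratin of follicles and of injured epidermis, had 1765, 4926, 2088, 10362 and 2464 in IFE-B and 6337, 12962, 6599, 8426 and 7826 in uHF-I (log2 difference -1.29, SE 0.27, limma adjusted p = 0.124). In 4 sets uHF-I was the higher, and in replicate 1 of day 11 IFE-B was. Plet1, a surface protein of the upper follicle, was higher in uHF-I in 4 of 5 sets with a log2 difference of -0.72 (SE 0.32), which did not pass, and it was named as a list member after its values were seen.

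Gata6, the transcription factor whose expression drove the label, gave no call. Levels were 7.3, 14, 16.1, 26.5 and 20.9 in IFE-B and 17, 0.0772, 63.7, 4.18 and 28.8 in uHF-I, and the log2 difference of 0.52 had an SE of 1.06 (limma adjusted p = 0.858). Its sign turned without replicate 1 of day 9. A Gata6 read was seen in 27 of 132 (20.5%) lin+ IFE-B cells, 11 of 62 (17.7%) uHF-I cells and 7 of 130 (5.38%) lin- IFE-B cells. Lrig1, a stem cell regulator of the junctional zone, had 4.96, 212, 52.9, 364 and 35.1 against 39.9, 53.7, 15.3, 24 and 5.01, was higher in IFE-B in 4 of 5 sets and did not pass (log2 difference 1.43, SE 0.91).

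On the other side stood the markers of basal epidermis. All 10 were tested, 2 passed, 5 were higher in IFE-B in every set where 8.86% of all tested genes were, and the median log2 difference was 1.42. Ly6a, the surface antigen Sca-1 of basal keratinocytes, averaged 214, 231, 135, 237 and 73.2 in IFE-B and was 0 in uHF-I in all 5 sets (limma adjusted p = 0.018). By cells, 40 of 132 (30.3%) IFE-B cells had a Ly6a read and 0 of 62 uHF-I cells did, which allows a share of up to 4.84% when 3 cells are taken as the limit of a count of 0 (exact 95% upper bound 5.78%). No fold change is given because the reference level is 0. Ly6a met the filter on low values through IFE-B alone, and its adjusted p holds only given that filter.

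Ifitm3, an interferon-induced membrane protein that hinders the entry of viruses, was abundant in both identities. IFE-B had 7799.8, 1708, 3538, 1850.5 and 4184 and uHF-I 3386, 511, 1295, 780 and 2532, a log2 difference of 1.24 (SE 0.16, limma adjusted p = 0.0334). The lin- IFE-B cells had 4680.1, 1696, 1014, 783 and 617, so lin+ IFE-B was the highest of the 3 groups in all 5 sets. Its difference was the smallest among the 9 genes and rests on detected levels in every profile.

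The metallothioneins, which bind zinc and copper, followed without passing. Mt2 had 1429, 755, 814, 693 and 716 in IFE-B against 783, 412, 62.9, 170.1 and 161 in uHF-I (log2 difference 1.88, SE 0.39, limma adjusted p = 0.124), with IFE-B higher in 5 of 5 sets, and Mt1 differed by 0.96 (SE 0.21) with the same count of sets. For Mt2 the lin- IFE-B cells reached 3572, 1621, 1000.5, 639 and 1650.4, above lin+ IFE-B in 4 of 5 sets. Thbs1, the matricellular protein thrombospondin-1, averaged 83.2, 74.8, 80.4, 241 and 121 in IFE-B and 21, 0, 0.0185, 0 and 7.39 in uHF-I, and did not pass either (limma adjusted p = 0.107).

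Neither basal keratin passed, and Krt14 separated the identities less than Krt5 did. Krt14 had 4507, 34482, 7401, 24119 and 7234 in IFE-B and 4448, 22825, 7211, 22622 and 4548 in uHF-I, a log2 difference of 0.25 (SE 0.11, limma adjusted p = 0.373). Its partner Krt5 differed by 1.24 (SE 0.37, adjusted p = 0.23 in limma) and was higher in IFE-B in 4 of 5 sets. Krt5 was named as a list member, like Itgb4 and Col17a1, which did not pass either. The uHF-I cells thus carried both basal keratins at high level. Itga6, the integrin chain used in the sort, had 29.3, 25, 59.5, 52.9 and 49.1 against 32.1, 13.8, 0, 22.3 and 29.2 (log2 difference 1.67, SE 0.95), and its mean difference leaned on replicate 2 of day 9, where no Itga6 read was found in 11 uHF-I cells.

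The mitotic genes formed the other part of the contrast. Cells entering mitosis switch on a shared set of late cell cycle genes, many of which carry in their promoters a short cell cycle homology region (CHR) and CCAAT boxes bound by the factor NF-Y. The promoters of the 4 mitotic genes that passed are shown because they were called together. Each runs from 250 bases before to 50 bases after the annotated start in RefSeq GRCm38.p6, 5′ to 3′ on the strand of the gene, with TTTGAA (the CHR core) and CCAAT, searched on both strands, in capitals (ATTGG is CCAAT read on the other strand, and in Cdca8 it overlaps the CHR core).
Ccnb2 (chr9:70421505-70421804, minus strand): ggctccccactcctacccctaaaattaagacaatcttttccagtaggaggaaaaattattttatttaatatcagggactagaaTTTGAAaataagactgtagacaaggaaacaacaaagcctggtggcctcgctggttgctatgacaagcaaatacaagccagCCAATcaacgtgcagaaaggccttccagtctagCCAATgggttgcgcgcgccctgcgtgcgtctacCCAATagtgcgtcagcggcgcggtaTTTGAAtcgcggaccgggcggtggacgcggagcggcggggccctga
Cenpa (chr5:30666636-30666935, plus strand): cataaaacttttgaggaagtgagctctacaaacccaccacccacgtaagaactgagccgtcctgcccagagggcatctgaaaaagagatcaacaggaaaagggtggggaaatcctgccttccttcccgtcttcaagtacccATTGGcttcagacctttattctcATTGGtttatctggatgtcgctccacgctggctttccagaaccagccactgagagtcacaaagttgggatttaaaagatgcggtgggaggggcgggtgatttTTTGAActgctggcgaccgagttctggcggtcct
Cdca3 (chr6:124829926-124830225, plus strand): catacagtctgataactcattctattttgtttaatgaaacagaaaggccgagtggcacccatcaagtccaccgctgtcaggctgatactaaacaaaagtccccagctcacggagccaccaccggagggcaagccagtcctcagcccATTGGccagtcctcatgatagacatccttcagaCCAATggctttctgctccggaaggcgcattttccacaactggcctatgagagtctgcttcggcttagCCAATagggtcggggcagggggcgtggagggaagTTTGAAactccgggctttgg
Cdca8 (chr4:124936868-124937167, minus strand): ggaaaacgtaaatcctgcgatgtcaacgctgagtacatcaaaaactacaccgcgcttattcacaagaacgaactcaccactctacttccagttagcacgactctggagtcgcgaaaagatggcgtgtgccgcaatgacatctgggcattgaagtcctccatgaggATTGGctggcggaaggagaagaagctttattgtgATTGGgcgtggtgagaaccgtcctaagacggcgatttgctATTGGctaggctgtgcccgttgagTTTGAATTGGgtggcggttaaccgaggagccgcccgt

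All 4 windows held both motifs. The start-proximal CHR core lay 4 bases downstream of the start in Ccnb2, 16 in Cenpa, 30 in Cdca3 and 13 in Cdca8, and each window had 2 to 4 CCAAT boxes. Over the 13 mitosis genes of the list with a promoter in the table together with Cdca3 and Cdca8, 12 of 15 windows (80%) held TTTGAA and 14 of 15 (93.3%) held CCAAT, against 18.1% and 37.9% of 27025 RefSeq promoters of the same length. A match describes letters in a window and says nothing of binding in these cells.

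Ccnb2, cyclin B2, which drives entry into mitosis with Cdk1, had levels of 108, 142, 359.8, 98.6 and 338 in IFE-B and 0, 0, 0.047, 0 and 23.8 in uHF-I (limma adjusted p = 0.0334). Cenpa, the histone variant that marks centromeres, had 25.5, 239, 415, 127 and 538 against 0, 0, 0, 0 and 21.9 (adjusted p = 0.0334 in limma). Both were at or near 0 in uHF-I outside replicate 2 of day 11. Cdca3, which promotes the destruction of the mitotic inhibitor Wee1, had 47.3, 173, 240.5, 148 and 189.9 in IFE-B and 0, 0, 0, 0 and 14.6 in uHF-I (limma adjusted p = 0.0428). Cdca8, the chromosomal passenger protein borealin, had 115, 325, 353, 73.7 and 377 and 0, 0, 0, 0 and 47.1 (limma adjusted p = 0.0428). Since most uHF-I profiles are at 0, the fitted log2 differences of these 4 genes, 6.33 to 6.55, depend on the added 1, and with 10 added they were 3.64 to 3.92. Whichever of the 5 sets was left out, these 4 genes, and Krt79 and Ifitm3, no longer passed. Nor did they pass with no filter on low values, which these 4 genes had met through their IFE-B levels. The lin- IFE-B cells were of like level, for example 118, 217, 323, 66.2 and 338 for Ccnb2, with lin+ IFE-B higher in 2 of 5 sets for Ccnb2, Cdca3 and Cdca8 and in 3 of 5 for Cenpa.

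Of the 15 mitosis genes tested, 2 (Cenpa and Ccnb2) passed, 11 were higher in IFE-B in every set against the 8.86% of all genes, and the remaining 4 also had a positive difference. The median log2 difference was 4.36. Plk1, a mitotic kinase, had 78.6, 27.6, 129, 57.1 and 80.3 against 0, 0.0514, 0, 0 and 0 and narrowly missed the threshold (limma adjusted p = 0.0529). Ube2c, which helps to degrade cyclins, had 62.2, 196, 396, 44.8 and 311 against 0, 62.3, 0, 0 and 0 (adjusted p = 0.105 in limma). The proliferation antigen Mki67 had 8.88, 77.6, 50, 13.7 and 29.1 against 1.67, 0, 0, 0 and 2.96 (limma adjusted p = 0.194), and lin- IFE-B exceeded lin+ IFE-B in 5 of 5 sets with 12.8, 91.7, 82.8, 18.4 and 55.3.

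Counted cell by cell, 46 of 132 lin+ IFE-B cells (34.8%) and 38 of 62 uHF-I cells (61.3%) had no read of any of the 15 mitosis genes, and cells with several of them were a minority in IFE-B as well. At least 5 of the 15 genes had a read in 39 of 132 lin+ IFE-B cells (29.5%, exact 95% interval 21.9 to 38.1), in 1 of 62 uHF-I cells (1.61%, 0.0408 to 8.66) and in 43 of 130 lin- IFE-B cells (33.1%, 25.1 to 41.9). These intervals cover counting error only. The share in lin+ IFE-B was 11.4% at day 6, 37.9% and 52.9% in replicates 1 and 2 of day 9, and 5.56% and 54.2% in those of day 11, so replicates of 1 day differed as much as days did. The lin- IFE-B cells followed the same order of sets, with 17.5%, 47.6%, 52.9%, 6.67% and 65%. Pooled over the wound sets, median reads per cell were 3.21e+06 in lin+ IFE-B and 3.31e+06 in uHF-I. At replicate 2 of day 9 they were 1646148 and 2354692. Among cells with at least 500000 reads, thinned to that number, 37 of 126 (29.4%) and 1 of 62 kept at least 5 genes. IFE-B cells tended to show more genes in all, and the part of this in the shares was not tested.

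**Figure D2:**
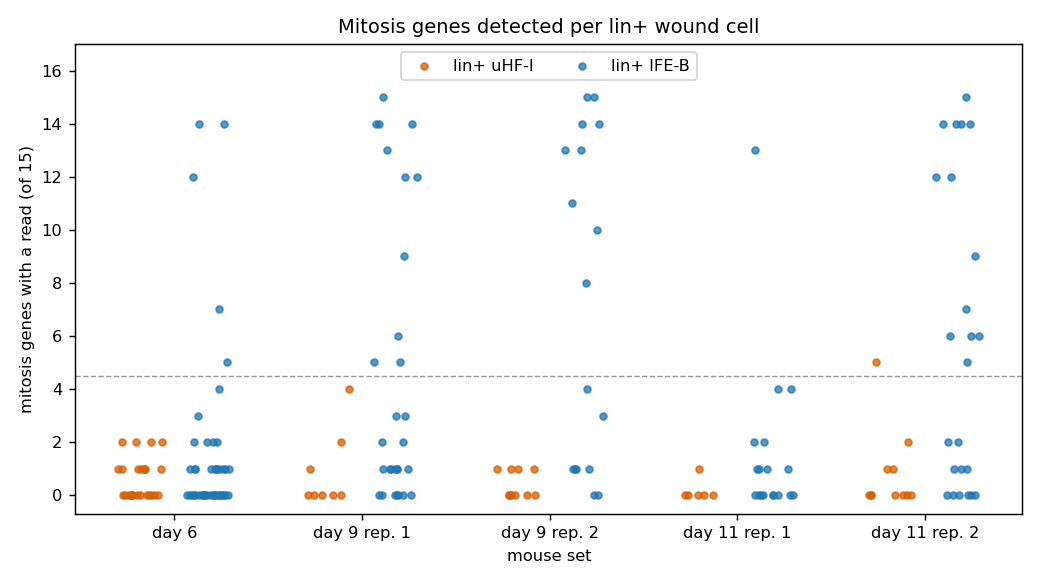
Number of the 15 mitosis genes with at least 1 read in each lin+ wound cell (vertical axis), by mouse set, with IFE-B cells in blue and uHF-I cells in orange. Above the dashed line lie cells with 5 or more of the genes, 39 of 132 IFE-B cells and 1 of 62 uHF-I cells.

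Lin+ IFE-B cells with at least 5 mitosis genes were not devoid of follicle transcripts. Of these 39 cells, 25 (64.1%) had a Krt79 read, 22 (56.4%) a Defb6 read and 20 (51.3%) an Alox12e read. In the 43 lin- IFE-B cells of the same kind the counts were 13 (30.2%), 15 (34.9%) and 14 (32.6%). These lin+ cells also showed more genes, a median of 4286 against 2713 in the other 93 lin+ IFE-B cells, 37 (39.8%) of which had a Krt79 read. Both medians were lower in lin- IFE-B, 3734 genes in the 43 cells and 1965 in the other 87. The part of gene detection in these shares was not tested.

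Genes of DNA replication leaned the same way without a call. None of 15 passed, 4 were higher in IFE-B in every set where 8.86% of all genes were, and the median log2 difference was 1.76. Tk1, thymidine kinase, had 80.6, 166, 136, 49.7 and 145 against 31.5, 0.131, 0, 20.5 and 63.4 (limma adjusted p = 0.244), and the replicative helicase subunit Mcm3 had 45.5, 93.3, 52.5, 256 and 37.8 against 26.6, 28.5, 0, 0 and 19.9 (adjusted p = 0.278 in limma). For ribosome biogenesis and Myc targets, 0 of 14 passed, 4 were higher in IFE-B in every set, again beside 8.86% of all genes, and the median was 1.07. Ncl, nucleolin, had 174, 247, 128, 334 and 168 against 103, 45.8, 8.32, 113 and 70.1 (limma adjusted p = 0.208). Myc itself had 167, 664, 233, 1676 and 376 against 368, 51.2, 185, 98 and 446, higher in IFE-B in 3 of 5 sets, with a log2 difference of 1.31 (SE 0.73) that did not pass and that turned negative in the sets with at least 10 cells of each identity.

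These medians sit on an upward shift that touches most genes. The median log2 difference of all 9196 genes was 0.62, and it fell to 0.30 among the 2880 genes with a mean level of at least 50, 0.16 among 1557 genes of at least 100 and 0.06 among 258 genes of at least 500. The uHF-I profiles average fewer cells and have more genes at 0, between 970 and 3763 of the tested genes per set against 357 to 919 in IFE-B, and 148 tested genes were at 0 in every uHF-I profile against 4 in every IFE-B profile. IFE-B cells also tended to show more genes, with a mean ratio of 1.29 between set medians. The part of cell numbers and of gene detection in the shift was not tested. A positive difference of a low gene was common. Counts of genes higher in every set are for that reason to be read against the shares of all tested genes, 8.86% for IFE-B and 1.85% for uHF-I.

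**Figure D3:**
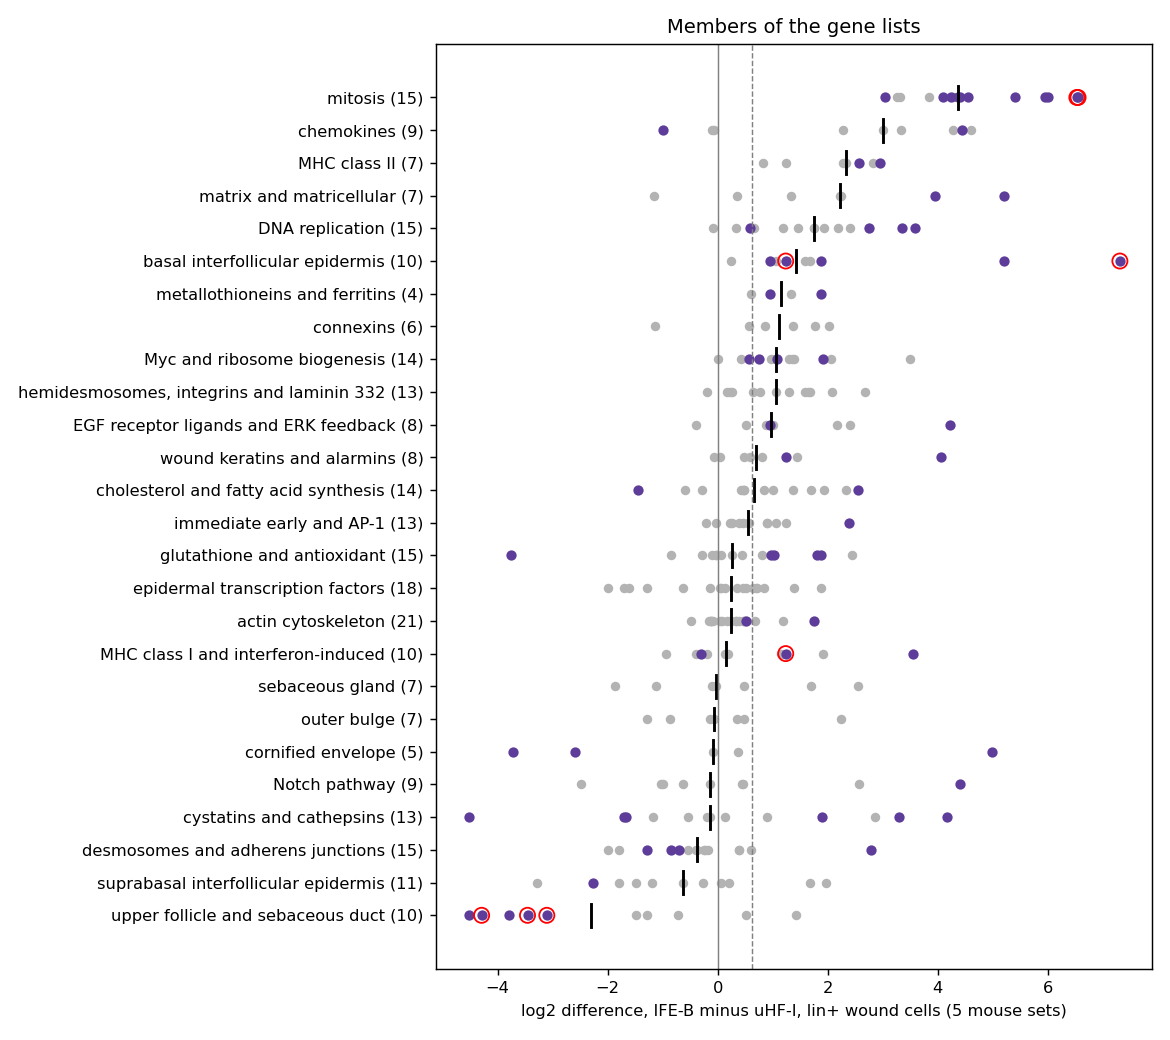
Log2 difference, IFE-B minus uHF-I, of every tested member of each gene list (number tested in brackets). Purple points had 1 direction in all 5 mouse sets, red circles passed the test, grey points did neither, black bars are list medians, and the dashed line is the median of all genes, 0.62. The mitosis list has the highest median, 4.36, and the upper follicle list the lowest, -2.30.

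Differentiation genes were mixed. In the cornified envelope list, 5 of 17 genes could be tested and 0 passed. Sprr1a, a small proline-rich envelope precursor, had 504, 33, 94.3, 119.6 and 761 in IFE-B and 5693, 345, 12694, 1319.6 and 1622 in uHF-I (log2 difference -3.72, SE 0.65, limma adjusted p = 0.105) and was the higher in uHF-I in 5 of 5 sets. Ivl, involucrin, also an envelope precursor, had 19.4, 8.6, 10.6, 0 and 15.7 against 191, 165, 122, 0.994 and 34.6 (limma adjusted p = 0.267). The related Sprr2a3 ran the other way, with 5.64, 214, 58.2, 716 and 0.888 in IFE-B and 0, 0.895, 0, 0.723 and 0 in uHF-I (adjusted p = 0.194 in limma). Members of 1 family thus had opposite signs in all sets, though neither passed. At replicate 2 of day 11 Sprr2a3 was under 1 in both identities, so its sign there rests on values near 0.

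Among 11 tested suprabasal genes, 0 passed and the median was -0.62. Sbsn, suprabasin, was higher in uHF-I in every set with 126, 72.6, 48.6, 139 and 51.7 against 525, 703, 505, 195 and 217 (limma adjusted p = 0.124). Krt10, a keratin of the suprabasal epidermis, had 90.7, 319.5, 33.6, 148 and 101 against 33, 9.22, 277, 14.5 and 26 and was the higher in IFE-B in 4 of 5 sets (log2 difference 1.68, SE 0.99, limma adjusted p = 0.48).

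Adhesion genes showed no call either. Of 15 desmosome and adherens junction genes, 3 were higher in uHF-I in every set (1.85% of all genes) and 1 in IFE-B, which is no more than the 8.86% of all genes. Dsp, desmoplakin, had 78.8, 323, 79.8, 318 and 126 in IFE-B and 181, 686, 369, 862 and 163 in uHF-I (log2 difference -1.29, SE 0.36, limma adjusted p = 0.208), while Cdh3, the basal P-cadherin, had 10.6, 82.8, 20.8, 113 and 6.74 against 0.987, 0, 0.109, 97.4 and 4.2 (adjusted p = 0.337 in limma). Of 13 hemidesmosome, integrin and laminin genes, which anchor basal cells, 0 had 1 direction in all sets and the median was 1.06. Itgb1, a chain shared by many integrins, had 66.2, 33.5, 82.6, 53.9 and 82.1 against 125, 16.5, 3.81, 0 and 51.5 (limma adjusted p = 0.404).

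Proteases and their inhibitors split within the list. Of 13 cystatins and cathepsins tested, 0 passed, 3 were higher in IFE-B in every set (8.86% of all genes) and 3 in uHF-I (1.85%), and the median was -0.13. Cstb, a cytosolic cystatin, had 6998, 652, 2311, 832 and 2969 in IFE-B and 10779, 3092, 14368, 2471 and 7331 in uHF-I (limma adjusted p = 0.0618). Ctsd, the lysosomal aspartic protease cathepsin D, had 198, 583, 279, 354 and 339 against 419.6, 3118, 1109.5, 1602 and 488 (adjusted p = 0.107 in limma), whereas Ctsl, cathepsin L, had 34.4, 38.5, 8.52, 64.8 and 62.6 against 0, 0, 0, 0 and 26.6 (limma adjusted p = 0.194). Cstb and Ctsd were named after their values were seen.

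Of 10 MHC class I and interferon-induced genes tested, 1 passed, Ifitm3, and 6 had a positive difference, with a median of 0.16 where that of all genes was 0.62. MHC class II, which presents peptides to helper T cells, had 7 tested genes, 0 of which passed and 2 of which were higher in IFE-B in every set (8.86% of all genes), and a median of 2.34. H2-Ab1, a class II beta chain, had 1128, 141, 192, 548 and 278 in IFE-B, 217, 0, 20.9, 162 and 208 in uHF-I (limma adjusted p = 0.208) and 71.4, 10.7, 24.9, 42.6 and 66.5 in lin- IFE-B, so lin+ IFE-B was the highest of the 3 in all 5 sets. An H2-Ab1 read was found in 37 of 132 (28%) lin+ IFE-B cells, 7 of 62 (11.3%) uHF-I cells, 8 of 130 (6.15%) lin- IFE-B cells and 1 of 44 (2.27%) unwounded lin+ IFE-B cells. The summed level of 10 immune cell markers was likewise the higher in IFE-B in every set, with 29.7, 11.2, 338, 21.8 and 119 against 0, 0, 0, 0 and 15.7 in uHF-I, and 5 to 8 of the 10 were at 0 in an IFE-B set. Of the 338 at replicate 2 of day 9, Lyz2 alone gave 287. The sum of 5 melanocyte markers was also the higher in IFE-B in every set, with 14.5, 31.6, 18.5, 8.11 and 11 against 1.95, 1.34, 0.578, 0 and 0. Over the 3 sets in RPKM the order of the immune sum in IFE-B was the reverse of that of H2-Ab1. In replicate 1 of days 9 and 11, the sets in read counts, the order was the same, with day 11 the higher for both. The part of immune transcripts in the class II levels was not tested.

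Chemokines included members of both directions. Of 9 tested, 0 passed, 1 was higher in IFE-B in every set (8.86% of all genes) and 1 in uHF-I (1.85%), and the median was 3.01. Ccl2, which attracts monocytes, had 1239.6, 164, 1098, 45.1 and 1771 in IFE-B and 547, 236, 0, 0 and 40.7 in uHF-I (limma adjusted p = 0.216), from 27 of 132 (20.5%) and 9 of 62 (14.5%) cells with a read. The neutrophil attractant Cxcl1 had 69.8, 41.4, 67.3, 20.6 and 140.4 against 0, 0, 0, 0 and 117 (adjusted p = 0.183 in limma). These levels came from few cells, 10 of 132 (7.58%) in IFE-B and 2 of 62 (3.23%) in uHF-I with a read. Ccl27a, a chemokine that keratinocytes make constitutively for skin-homing T cells and a list member named after its values were seen, was the higher in uHF-I in 5 of 5 sets with 7247, 5517, 3168, 3809.5 and 1952 against 8158, 13895, 8682, 5444 and 4734 (limma adjusted p = 0.124).

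Signalling and antioxidant genes gave single cases. Of 9 Notch genes tested, 0 passed and 1 was higher in IFE-B in every set (8.86% of all genes). Their median log2 difference was -0.13. Of 8 EGF receptor ligands and ERK feedback genes, 0 passed and 2 were higher in IFE-B in every set, with a median of 0.98. Of 15 glutathione and antioxidant genes, 0 passed, with a median of 0.26. In every set 4 of these were higher in IFE-B and 1 in uHF-I (1.85% of all genes). Dll1, a Notch ligand of basal keratinocytes, had 18, 43.7, 34.7, 15.3 and 20.1 in IFE-B and 1, 0, 0, 0 and 0 in uHF-I (limma adjusted p = 0.124), and Nrarp, a feedback inhibitor of Notch, had 22.8, 23.3, 7.65, 0 and 41 against 42.9, 56, 175, 75.3 and 31.5 (adjusted p = 0.342 in limma). A Dll1 read was found in 17 of 132 (12.9%) IFE-B cells and 3 of 62 (4.84%) uHF-I cells. Epgn, epigen, a ligand of the EGF receptor, had 21.4, 1, 121, 59.6 and 327 against 0, 0, 0.119, 0 and 38.7 (limma adjusted p = 0.194). Gpx2, a glutathione peroxidase, was higher in uHF-I in every set with 32.3, 4.57, 22.5, 0 and 29 against 138, 99.9, 345, 63.4 and 178 (limma adjusted p = 0.107). The wound keratin Krt6a, with 26.6, 545, 252, 229.6 and 114 against 215, 64.1, 0.0962, 1745 and 208, had no settled direction (log2 difference 0.80, SE 1.34). Of the 33 lists, 26 had tested members and no call, and 2, for fibroblasts and endothelial cells, had no tested member.

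The identity gap was then compared between wounds and unwounded skin. Identities were assigned from the transcriptomes in both, so this comparison is not independent of the labels either. In the interaction test, which set 5 wound sets against 2 unwounded sets over 9952 genes, 0 genes (0%) passed in limma, and 769 (7.73%) had an unadjusted p under 0.05. Tests in edgeR also called 0, with 361 genes at an unadjusted p under 0.05. An interaction is the difference in wounds minus that in unwounded skin. The labels do not tie the unwounded sets to the wounds of the same mice, so the fit took all 7 sets as separate.

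**Figure D4:**
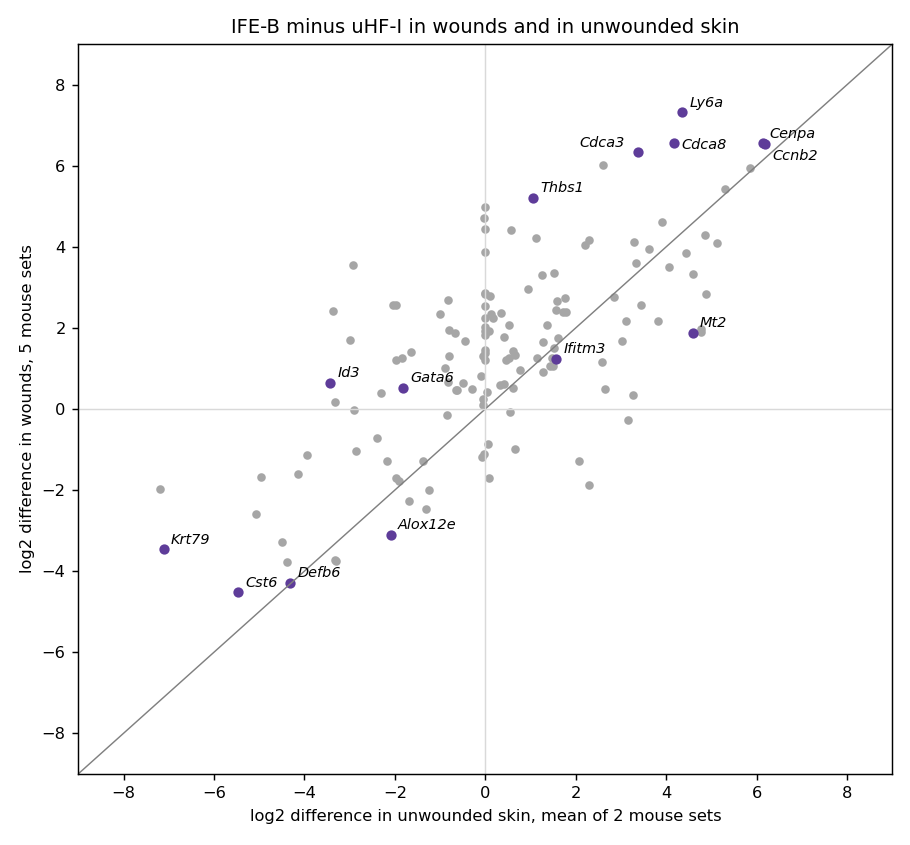
Log2 difference, IFE-B minus uHF-I, in lin+ cells of wounds (vertical axis, 5 mouse sets) against that in unwounded skin (horizontal axis, mean of 2 mouse sets) for the genes chosen by rule and for further members of the lists. The diagonal marks equal differences, labelled genes are purple, and no gene passed the test of the distance from the diagonal. Krt79 lies above the diagonal with an interaction of 3.63 and Defb6 close to it with 0.00.

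Krt79 shows the size of such gaps. In unwounded skin its level was 13.5 and 212 in the IFE-B cells of replicates 1 and 2 and 12691 and 4645 in uHF-I, log2 differences of -9.73 and -4.49, against -3.45 in wounds. The interaction was 3.63 (SE 1.25, unadjusted p = 0.014, adjusted p = 0.6 in limma). The gap was wider in unwounded replicate 1 than in replicate 2, and the spread between these 2 sets exceeded the interaction.

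For Defb6 the unwounded levels were 148 and 1547 in IFE-B and 5724 and 16112 in uHF-I, and the interaction was 0.00 (SE 0.89). Alox12e had 292 and 655 against 2049 and 1693 and an interaction of -1.05 (SE 0.61, unadjusted p = 0.11 in limma). The direction of both genes in unwounded skin was that of the wounds. Ly6a had 118 and 90.2 in unwounded IFE-B and 0 and 26.8 in uHF-I, with 1 of 34 unwounded uHF-I cells showing a read.

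The lowest unadjusted p among the genes described, chosen after the values were seen, was that of Ctsd. Its unwounded levels were 50.9 and 22.6 in IFE-B and 2525 and 471 in uHF-I, and the interaction was 3.26 (SE 0.68, unadjusted p = 0.00048, adjusted p = 0.46 in limma), a narrower gap in wounds that failed the correction. Ccl27a had 5822 and 7718 against 2609.5 and 6964 and an interaction of -1.67 (SE 0.42, adjusted p = 0.46 in limma). Mt2, with 375 and 729 against 4.27 and 90.5, had -2.73 (SE 0.96, adjusted p = 0.6 in limma). Id3, an inhibitor of helix-loop-helix factors, was listed at 0 and 401 in IFE-B and 99.3 and 422 in uHF-I with an interaction of 4.04 (SE 1.48, adjusted p = 0.61 in limma).

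In unwounded skin the cells with several mitosis genes were IFE-B cells too. At least 5 of 15 had a read in 7 of 44 lin+ IFE-B cells (15.9%, exact 95% interval 6.64 to 30.1), 1 of 23 in replicate 1 (4.35%) and 6 of 21 in replicate 2 (28.6%), the latter within the range of the wound sets. Whether this share differed from that in wounds was not tested, and the median interaction of the mitosis genes was 0.07. Among uHF-I cells it was 0 of 34, which allows a share of up to 8.82% by the limit of 3 cells (exact 95% upper bound 10.3%). H2-Ab1 was low in the unwounded IFE-B cells, with 0 and 46.8.

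As a share of all lin+ cells of a set, IFE-B made up 48.9% and 45.7% in the unwounded sets and 47.3%, 69.0%, 38.6%, 56.2% and 51.1% in the wound sets. The corresponding shares of uHF-I were 36.2% and 37.0%, and 28.0%, 19.0%, 25%, 18.8% and 23.4%. All 5 wound sets lay below both unwounded sets for uHF-I, while the exact 95% intervals of single sets overlapped, for example 22.7 to 51.5% in replicate 1 of day 0 and 19.1 to 38.2% at day 6. How the sort by Itga6 and tdTomato weighted these shares was not tested. The unwounded IFE-B shares stand beside the staining of the paper, which detected no labelled basal cells in unwounded skin. Whether the unwounded lin+ IFE-B cells were basal was not tested.

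**Figure D5:**
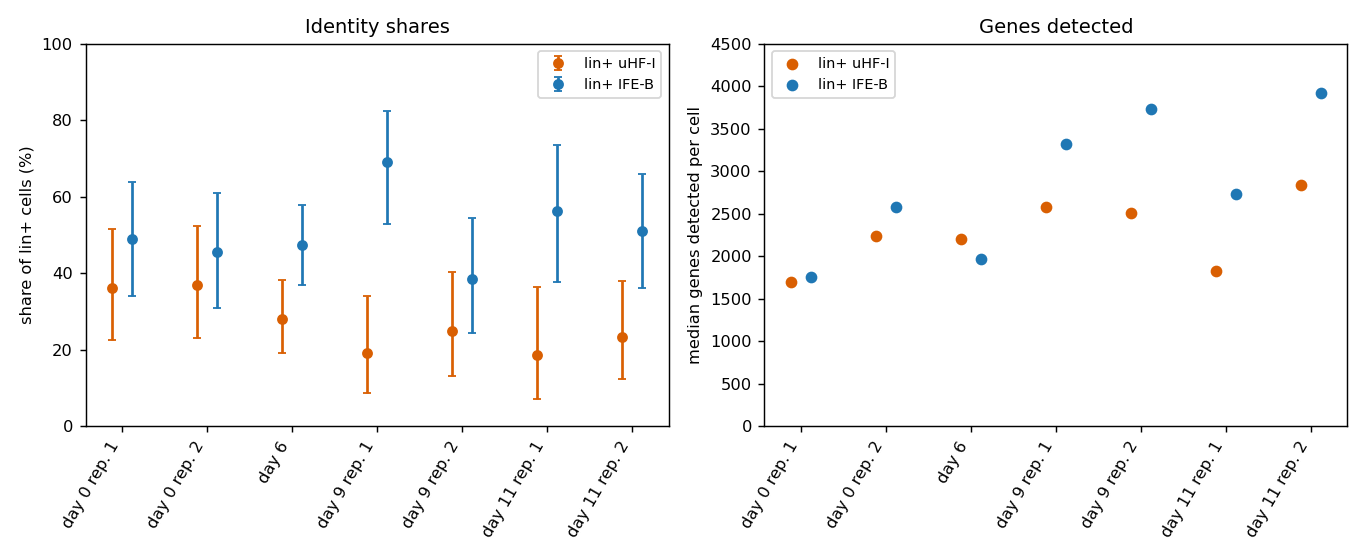
Left, IFE-B and uHF-I as a share of all lin+ cells of each mouse set (%), with exact 95% binomial intervals as bars. Right, median number of genes detected per cell. IFE-B is blue and uHF-I orange, and the gene medians of IFE-B exceed those of uHF-I in the 4 sets of days 9 and 11 but not at day 6 (1964.5 against 2204).

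IFE-B cells tended to show more genes. The set medians were 1964.5, 3323, 3740, 2732 and 3923.5 genes in IFE-B and 2204, 2583.5, 2512, 1830.5 and 2835 in uHF-I, a mean ratio of 1.29 (mean log2 ratio 0.36, SD 0.31, n = 5 sets, exact two-sided sign-flip test p = 0.125, smallest possible 0.0625). Reads did not go with this. Their median was higher in IFE-B in 2 of 5 sets (mean log2 ratio -0.15, SD 0.22, n = 5 sets, exact p = 0.25). Of the 194 cells, 13 had fewer than 1000 genes and 2 fewer than 500.

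The deposited clusters cut across the identities. Of the IFE-B cells, 80 of 132 (60.6%) lay in cluster 0, 29 in cluster 2, 10 in cluster 3 and 13 in clusters 1, 4 and 5. Of the uHF-I cells, 28 of 62 lay in cluster 0, 22 in cluster 3, 9 in cluster 2 and 3 in cluster 1. Within cluster 0 alone, Defb6 averaged 2471, 212, 579, 90.0 and 377 in IFE-B and 5714, 1041, 8493, 949 and 3879 in uHF-I, and Alox12e was likewise the higher in uHF-I in 5 of 5 sets. Krt79 kept that direction in 3 of 5 sets there, with 663, 191, 318, 436 and 530 against 626, 6776, 1133, 59.7 and 1084, where some sets hold as few as 3 uHF-I cells. Ly6a stayed at 0 in uHF-I of cluster 0 in every set. Ifitm3 was the higher in IFE-B in 4 of 5 sets, with 6104, 2342, 3594, 2504 and 4366 against 5082, 1239, 4310, 1397 and 3095, and turned at replicate 2 of day 9. Cst6 was the higher in uHF-I in 3 of 5 sets, with 1822, 239, 52.9, 54.2 and 67.2 in IFE-B against 1064, 746, 263, 0 and 1124.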

How the data were processed

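Single keratinocytes were sequenced by Smart-seq2. Per the labels, the authors trimmed reads with Trimmomatic (0.27), aligned them with STAR (2.2) to GRCm38 (mm10), counted genes with featureCounts and used Seurat (3.2.2). The deposited combined table holds read counts for the first batch (replicate 1) and, by its values, RPKM for the second (day 6 and replicate 2), a unit that the authors do not name. Gene lengths for 19518 genes were taken from first-batch cells deposited as both units. Second-batch reads recovered with them were whole within 0.02 for 99.97% of values below 200 reads, and 99.7% in the lowest cell. In the first-batch RPKM tables, 60 per-sample columns that match no annotated cell were not used, nor were a log-scaled table and a separate raw table that repeat the same cells.

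Groups come from the labels, and identities and clusters from the deposited annotation. No doublet caller was run. Values were scaled to a total of 1000000 per cell, averaged over the cells of a mouse set and identity, scaled within batch by median of ratios, and tested as log2(value + 1) in limma (3.58.1, R 4.3.3) with trend, for genes in both batches with a value of at least 10 in 2 of 10 profiles. The mouse set was a block because both identities came from the same skin and sort; deviations of paired profiles correlated at -0.27 to -0.07, so the profiles did not deviate together. Residual and prior degrees of freedom were 4 and 5.99 (5 and 6.54 for the interaction). Alternatives added 10 instead of 1, dropped the filter, scaling or block, weighted by cells, left out each set, asked for 10 cells, or used edgeR (4.0.16) on recovered reads, which is an added count test of the design. Scripts were tested on simulated data. Named genes are those called, up to 4 per list by size of difference, and genes the study names, with exceptions stated. Members and lists were chosen with earlier results of these data known. Reads carry no molecular identifiers, and shares of cells carry exact binomial intervals. A gene is not reported here.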

Additional observations from a re-analysis of the deposited data

Results flagged for a closer look

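Over 82 series of 5 set values checked for a set far from the others, of which chance gives about 1 in 20, 3 had such a set. The Krt17 difference at replicate 1 of day 11 was 0.31 on the log2 scale where the other 4 sets lay between -1.83 and -1.45. The Itga6 difference at replicate 2 of day 9 was 5.75 where the others lay between -0.02 and 1.22. The log2 ratio of median genes detected at day 6 was -0.17 where the others lay between 0.36 and 0.58.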

How the results depend on the processing

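With the mouse set as block 9 genes passed, and with no replicate block but batch as covariate 59 did (48 higher in IFE-B, 11 in uHF-I), 8 of the 9 among them. The count was 19 with 10 added before the log, 0 with no filter on low values, 0 in the sets with at least 10 cells of each identity, 0 in edgeR with TMM or RLE scaling, and 0 to 8 when 1 set was left out. It was 11 with no median-of-ratios scaling, 12 weighted by cells and 13 in cells with at least 1000 genes, an alternative chosen after seeing the data. The interaction gave 4 calls with no filter and 0 under the other alternatives. Leaving out 1 set, the mean log2 ratio ranged from -0.19 to -0.06 for reads and from 0.31 to 0.50 for genes detected.

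The 9 genes never changed direction over 14 alternatives. Alox12e kept its call in 8 of them, Defb6 in 7, Ly6a in 6, the 4 mitotic genes in 5 each, and Krt79 and Ifitm3 in 4 each, with adjusted p values up to 0.472 (0.488 for Ly6a and Cdca8). The median of all genes was 0.62, 0.66 without scaling, 0.99 with TMM and 0.84 with RLE. Signs turned for Gata6 (-0.27 to 1.17 with 1 set left out, -1.205 with at least 10 cells), Myc (-0.39 with at least 10 cells) and Krt6a (-0.92 to 1.76 with 1 set left out, -0.059 with TMM, -0.23 with RLE). The Defb6 interaction, near 0, ranged from -0.87 to 0.90 with 1 set left out and was -0.21 with TMM, -0.37 with RLE and -0.21 in cells with at least 1000 genes. The cause of these changes was not tested. Small uHF-I sets, 6 to 26 cells, limit what low genes can show.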
